A study of Mus musculus with 27 samples.

Results

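Itch, Ift88, Smarcal1, Nedd4l, C1ra and Madd are 6 of the 55483 genes in a table of read counts, chosen by measured values, because their reads were high where RNA was recovered with control IgG relative to anti-HuR RIP. RIP is ribonucleoprotein immunoprecipitation: an antibody on beads pulls down a protein with the RNA bound to it, and control IgG is an antibody with no intended target. The values that chose these genes were the counts of the IgG libraries against those of the RIP libraries, so IgG levels and their ratios are described here without a test. All 6 genes passed the filter on low counts in total RNA (12369 genes kept) and in RIP (13614 genes kept).

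The cells were RAW264.7, an established mouse macrophage line, given DMSO, LPS (1 µg/ml) with DMSO, or LPS (1 µg/ml) with TM7nox (10 µM), for 6 h each. LPS is the lipopolysaccharide of bacterial walls that activates macrophages, and TM7nox is a tanshinone mimic, a small molecule of a class made to keep HuR, an RNA-binding protein, from its targets. The 27 libraries were 4 of total RNA, 4 of anti-HuR RIP and 1 of IgG for each treatment, and all 3 IgG libraries carry replicate number 3. Nothing in the labels says that replicates came from separate cultures, so p-values measure the spread between these samples, which may be technical.

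HuR binds U-rich and AU-rich stretches, often in the 3′ UTR of an mRNA, and affects how long the mRNA lasts and how much of it is translated. RNA that reaches the beads without HuR, by binding to the matrix, to the antibody or to proteins held by either, is the background that a control IgG library samples. Itch and Nedd4l are HECT ubiquitin ligases of the NEDD4 family, C1ra is a serine protease of the first complement component, Madd is an exchange factor that loads Rab3 and Rab27 GTPases, Smarcal1 is an annealing helicase that remodels stalled replication forks, and Ift88 is a subunit of the IFT-B complex that carries cargo along cilia.

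The RNA libraries held 2.73 to 28.3 M counts, the RIP libraries 19.8 to 41.4 M and those of IgG 21.2 M for DMSO, 24.5 M for LPS and 8.87 M for LPS+TM7nox. RNA DMSO replicate 1 was the shallowest. The 8 macrophage markers summed to 3203 to 6678 CPM (read counts divided by library size and scaled by TMM) in RNA, 666 to 2918 in RIP and 2753 to 4379.9 in IgG. Fibroblast, epithelial, T cell and hepatocyte markers each summed to at most 0.492 CPM in any library, and B cell markers to at most 27.4, in RIP. TMM scaling sets a library against the typical gene, so a CPM carries no measure of how much RNA came off the beads. The TMM factors of the IgG libraries were 1.817, 1.262 and 1.332, and those of the RIP libraries 0.5185 to 0.9962, so scaling by library total alone gives larger ratios of IgG to RIP.

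The choice of the genes fixed that IgG would be high against RIP, so the counts that follow describe the size of the difference and support nothing. In each treatment the IgG library lay at least 4-fold above the highest RIP library for all 6 genes, which makes 18 of 18 pairs of gene and treatment, and also at least 4-fold above the highest total RNA library in 18 of 18. The genes measured were the 18480 that passed the filter on low counts over all 27 libraries. Since each IgG group is 1 library, 1 library above the cutoff was enough, so genes kept only through IgG can be among them. Of these genes, 2.34% met the first condition in DMSO, 2.45% in LPS and 3.94% in LPS+TM7nox, and 0.206% met it in all 3. The condition against total RNA was met by 7.71%, 2.58% and 6.06%, and by 0.492% in all 3. Both counts were also 18 with scaling by library total, with DESeq2 size factors and with replicate 3 alone.

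Meeting both conditions in all 3 treatments left 13 genes (0.0703%). They were the 6 genes, their relatives Wwp1, Wwp2 and C1rb, and Fcgr1, Blm, Atrip and Gm10451, which are named here after their values were seen. Fcgr1 encodes the high-affinity receptor for IgG, Blm a helicase of homologous recombination, and Atrip the partner of the ATR checkpoint kinase. Fcgr1 in IgG was at least 6.16-fold above every RIP library and 4.63-fold above every RNA library, Blm 5.12-fold and 4.09-fold, and Atrip 4.07-fold and 4.49-fold.

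**Figure D1:**
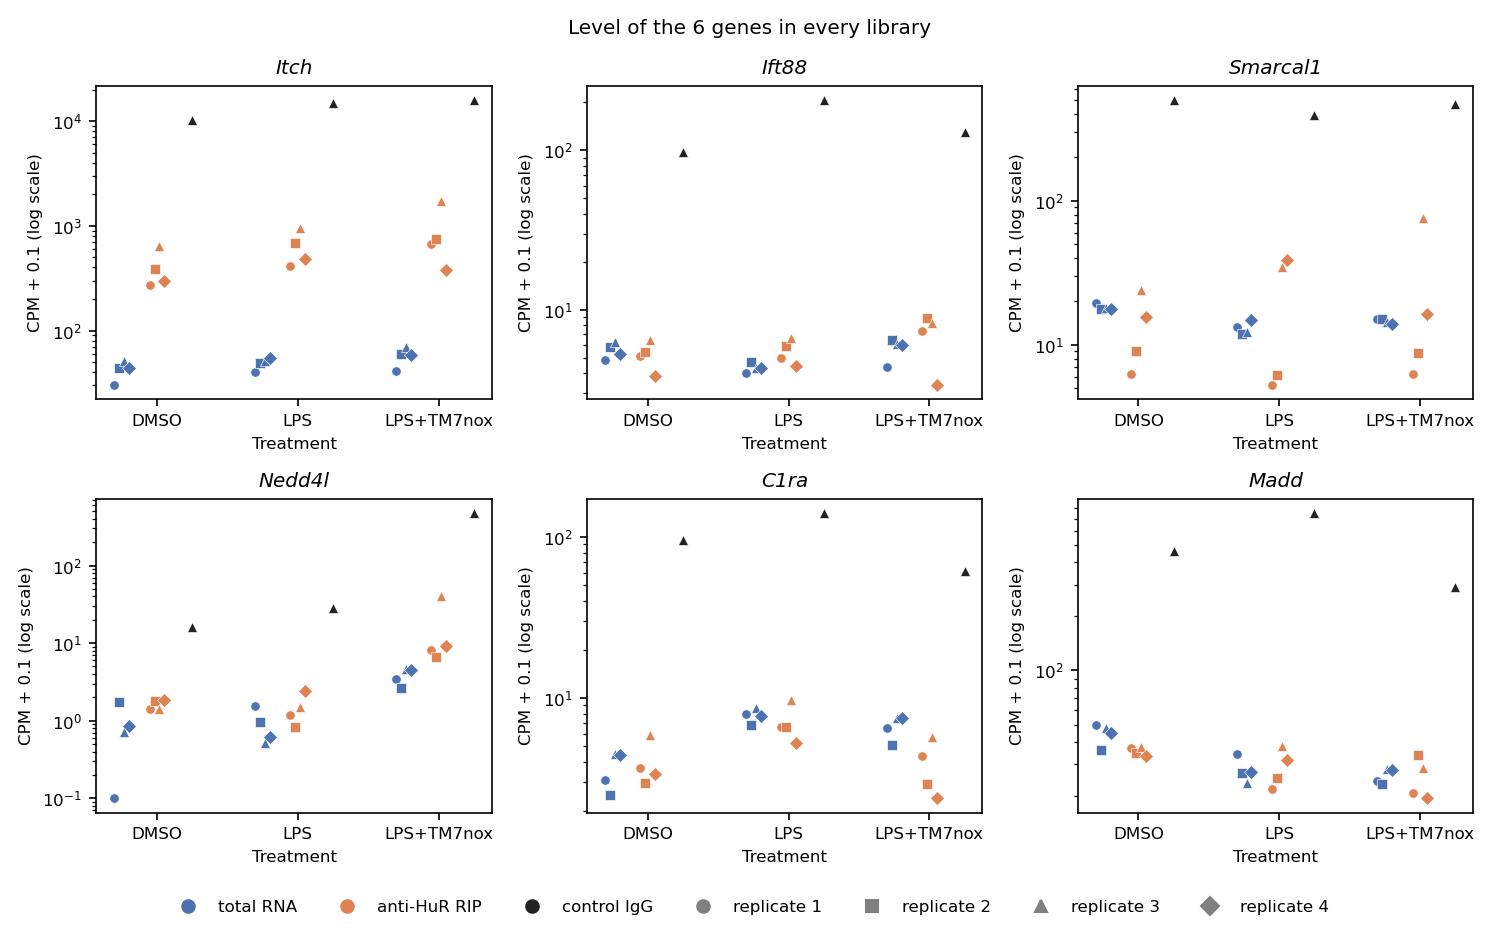
CPM in each of the 27 libraries for the 6 genes, on a log axis with 0.1 CPM added. Points are single libraries, coloured by assay and shaped by replicate number, and the black IgG point lies above all RIP and RNA points in every panel and treatment.

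**Figure D2:**
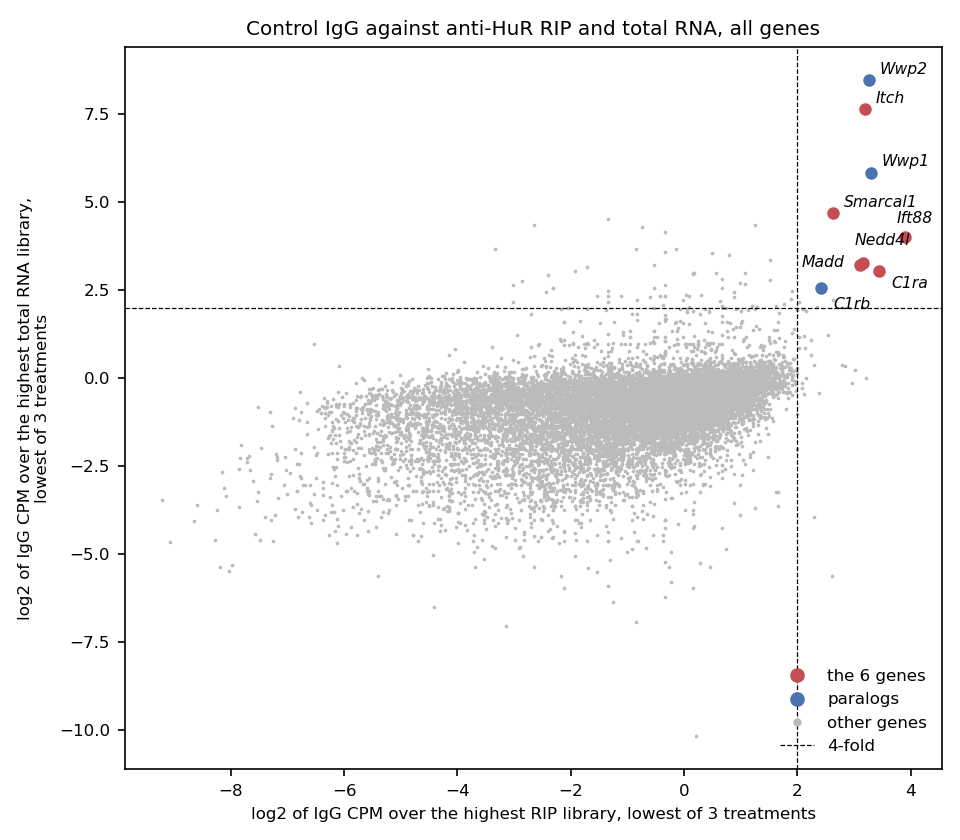
Each point is 1 of 14400 genes, at the log2 ratio of IgG to the highest RIP library (x axis) and to the highest RNA library (y axis), in the treatment where that ratio was lowest. A further 4080 genes without a finite ratio were left out, and all 6 genes and the 3 paralogs lie past the dashed 4-fold lines.

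Itch stood out by its share of the reads. It took 1.87% of all counts in IgG DMSO (Wilson 95% interval 1.86 to 1.87), 1.89% in IgG LPS (1.89 to 1.90) and 2.11% in IgG LPS+TM7nox (2.10 to 2.12). These intervals cover counting error only, since the reads carry no stated molecular identifiers. The gene lies on chromosome 2 at 154975388 to 155069532 (GRCm39, plus strand, identifier ENSMUSG00000027598) with 25 exons in its main transcript.

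In total RNA, Itch was at 30.0, 43.5, 51.3 and 43.6 CPM in DMSO (replicates 1 to 4), 39.7, 48.7, 51.2 and 54.8 in LPS, and 41, 59.6, 69.4 and 58.7 in LPS+TM7nox. In RIP it was at 274, 385, 642 and 295 CPM in DMSO, 415, 691, 956 and 486 in LPS, and 664, 743, 1723 and 377 in LPS+TM7nox. Control IgG gave 10288, 15011 and 15850.3 CPM. Replicate 3 was the highest RIP library in every treatment, every RIP library lay above every RNA library, and every IgG library above every RIP library. IgG was 25.8, 23.6 and 18.1 times the RIP mean in DMSO, LPS and LPS+TM7nox, and 244, 309 and 277 times the RNA mean. The RIP mean was 9.48, 13.1 and 15.3 times the RNA mean, and 5.98, 6.53 and 8.11 times with scaling by library total.

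In the NEDD4 family, Itch and Nedd4l were chosen for high IgG over RIP, so only the other 7 genes are outside that choice. Over all genes, 0.0703% lay at least 4-fold above every RIP library and every RNA library in all treatments. Of the 9 genes of the family, 4 did: Itch, Wwp1, Wwp2 and Nedd4l. The other 5 did not: in the treatment where it was lowest, the ratio of IgG to the highest RIP library was 1.12 for Nedd4, 0.754 for Smurf1, 0.599 for Smurf2 and 1.38 for Hecw2, with Hecw1 at 0 counts in an IgG library. Outside the choice, Wwp1 was at 9.85 and Wwp2 at 9.66. The family median of that ratio, with the chosen genes included, was 1.38, and the median of all genes was 0.387. The latter takes in genes with 0 counts in an IgG library, whose ratio is 0, so it is a low reference. Smurf1 and Smurf2, which target receptor-regulated SMADs, were well measured at 182 to 486 and 196 to 923 counts in IgG, while Nedd4, Hecw1 and Hecw2 had at most 18 counts in any IgG library.

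Wwp2, a WW-domain ligase closely related to Itch, was read more often than any other gene in all 3 IgG libraries, at 6.45%, 3.96% and 5.09% of counts. It lay at 35527, 31375 and 38173 CPM in IgG, 1242 to 3953 in RIP and 49.5 to 99.7 in RNA. Wwp1 lay at 2694, 1245 and 961 CPM in IgG, 32.5 to 164 in RIP and 10.3 to 34.5 in RNA. Together Itch, Wwp2, Wwp1 and Nedd4l took 8.82%, 6.01% and 7.39% of the IgG counts in DMSO, LPS and LPS+TM7nox. Their share was at most 0.289%, 0.164% and 0.355% in a RIP library, and at most 0.0281%, 0.0161% and 0.0172% in an RNA library.

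**Figure D3:**
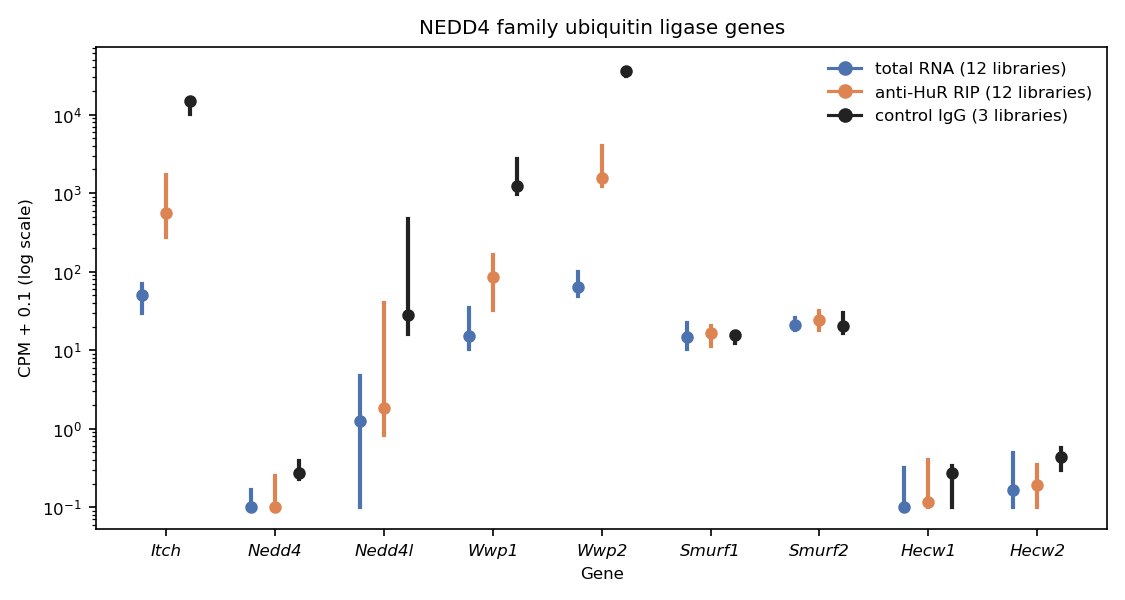
CPM of the 9 NEDD4 family genes on a log axis with 0.1 CPM added, with the median (point) and range (line) over 12 RNA, 12 RIP and 3 IgG libraries. Levels compare assays within a gene, not genes, since CPM is not per length, and the IgG range lies above the RIP range for Itch, Wwp1 and Wwp2 and overlaps it for Nedd4l, Smurf1 and Smurf2. For Nedd4l the ranges pool treatments, and IgG lies above RIP within each treatment.

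Reads could in principle be shared between relatives, so the coding sequences were compared (GENCODE M39). The longest identical run between Itch and Wwp2 was 18 bases, between Itch and Wwp1 18 bases, and between Nedd4l and Wwp1 21 bases. The sequences below show the 90-base coding window in which Itch matches its relatives best, as an example of how far the 3 transcripts read most often in IgG within this family resemble each other. Lower case marks agreement with Itch and capitals mark bases that differ. The Itch window is at chr2:155050979-155051068 (plus strand), that of Wwp2 at chr8:108278909-108278998 (plus) and that of Wwp1 at chr4:19631116-19631205 (minus), on GRCm39. Both relatives match 73 of 90 bases and differ at 17.
Itch: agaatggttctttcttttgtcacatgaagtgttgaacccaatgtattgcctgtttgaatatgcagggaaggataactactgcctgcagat
Wwp2: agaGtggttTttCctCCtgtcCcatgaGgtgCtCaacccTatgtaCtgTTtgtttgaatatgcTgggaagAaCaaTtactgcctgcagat
Wwp1: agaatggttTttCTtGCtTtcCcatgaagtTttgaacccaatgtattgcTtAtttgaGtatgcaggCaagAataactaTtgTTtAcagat

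Nedd4l, best known for the ubiquitination of the epithelial sodium channel, was the member whose IgG level moved most with treatment. It lies on chromosome 18 at 65020724 to 65350899 (plus strand, ENSMUSG00000024589). In RNA it was at 0, 1.64, 0.623 and 0.766 CPM in DMSO, 1.43, 0.854, 0.423 and 0.513 in LPS, and 3.36, 2.52, 4.56 and 4.39 in LPS+TM7nox. The value of 0 was 0 counts in the shallowest library, where 3 counts would be 0.642 CPM. All 4 RNA libraries with TM7nox lay above the other 8.

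In RIP, Nedd4l was at 1.31, 1.67, 1.31 and 1.77 CPM in DMSO, 1.08, 0.734, 1.39 and 2.29 in LPS, and 8.11, 6.44, 40.2 and 9.18 in LPS+TM7nox. In IgG it was at 15.8, 28.0 and 468 CPM, on 606, 866 and 5535 counts. The TM7nox libraries were the highest in all 3 assays, with replicate 3 apart from the other RIP libraries. IgG was 10.4, 20.4 and 29.3 times the RIP mean, and 20.8, 34.8 and 126 times the RNA mean. The share of IgG counts was 0.00286% (0.00264 to 0.0031), 0.00353% (0.00331 to 0.00378) and 0.0624% (0.0608 to 0.064).

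Between LPS and LPS+TM7nox the IgG level of Nedd4l differed 16.7-fold, the RIP mean 11.7-fold and the RNA mean 4.61-fold. The RIP fold leans on replicate 3 of LPS+TM7nox, at 40.2 CPM with the next highest at 9.18. Without that library the log2 difference in the RIP test was 2.62 in place of 3.56. With scaling by library total the IgG difference was 17.7-fold. The IgG values are single libraries, and whether the folds differ between assays was not tested. Across all 27 libraries, only 2 genes had a library at least 10 times above each of the other 26 with at least 50 counts, and Nedd4l in IgG LPS+TM7nox was 1 of them, at 11.7 times the next library. The next largest excesses in that library were 2.99 for Gm24924 and 2.61 for Samd15. In IgG DMSO the leading excesses were Blm (2.94), Ulk4 (2.58) and Stil (2.40), and in IgG LPS they were Fcgr1 (2.25), Csf2 (2.07) and Mtor (1.95). None of the other 5 members was among these leading genes. The other 26 libraries include the other IgG libraries, where these members were also high, so a large excess was unlikely from the start.

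C1ra encodes the protease that C1q activates when it binds immune complexes, and that then cleaves C1s. It lies on chromosome 6 at 124489364 to 124500402 (plus strand, ENSMUSG00000055172). In RNA it was at 3.0, 2.39, 4.36 and 4.33 CPM in DMSO, 7.89, 6.70, 8.61 and 7.60 in LPS, and 6.38, 5.01, 7.43 and 7.36 in LPS+TM7nox. All RNA libraries with LPS, with or without TM7nox, lay above all DMSO libraries. In RIP it was at 3.56, 2.88, 5.83 and 3.25 CPM, then 6.46, 6.50, 9.59 and 5.15, then 4.28, 2.82, 5.64 and 2.28, in the same order, and in IgG at 96.3, 139.8 and 61.5. RIP and RNA overlapped in each treatment, while IgG was 24.8, 20.2 and 16.4 times the RIP mean and 27.4, 18.2 and 9.40 times the RNA mean.

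C1rb is a near-identical neighbour of C1ra on the same chromosome, at 124547253 to 124558130. Their coding sequences agree at 98.0% of 2118 aligned bases, with an identical run of 757 bases, so reads could have been given to either gene and the C1ra values are uncertain to that extent. C1rb had 181, 216 and 30 counts in IgG and at most 19 in any other library. The pair is shown in the 90-base coding window where they differ most, 13 of 90 bases in capitals, because reads there can tell the copies apart. The C1ra window is at chr6:124499606-124499695 and that of C1rb at chr6:124557652-124557741, both on the plus strand of GRCm39.
C1ra: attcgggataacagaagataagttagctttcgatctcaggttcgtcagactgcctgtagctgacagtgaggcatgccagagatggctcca
C1rb: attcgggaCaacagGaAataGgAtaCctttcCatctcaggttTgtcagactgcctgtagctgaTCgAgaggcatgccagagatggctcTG

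Madd lies on chromosome 2 at 90967080 to 91014368 (minus strand, ENSMUSG00000040687). In RNA it was at 49.6, 35.9, 47.8 and 44.6 CPM in DMSO, 34.0, 26.8, 23.6 and 27 in LPS, and 24.2, 23.2, 28.0 and 27.8 in LPS+TM7nox. Every DMSO library lay above every library with LPS. In RIP it was at 36.9, 34.5, 37.6 and 33.1 CPM, then 21.9, 25.2, 37.9 and 31.5, then 20.8, 33.7, 28.6 and 19.3, and in IgG at 460.4, 748 and 289.7. The RIP groups overlapped, and IgG was 13.0, 25.7 and 11.3 times the RIP mean and 10.3, 26.9 and 11.2 times the RNA mean.

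Smarcal1 lies on chromosome 1 at 72574766 to 72675951 (plus strand, ENSMUSG00000039354). In RNA it was at 19.5, 17.5, 17.9 and 17.5 CPM in DMSO, 13.1, 11.8, 12.2 and 14.8 in LPS, and 15.1, 15.0, 14.4 and 13.8 in LPS+TM7nox. In RIP it was at 6.19, 8.91, 24.1 and 15.4 CPM, then 5.15, 6.08, 34.5 and 39.0, then 6.2, 8.65, 75.7 and 16.2. In IgG it was at 499.6, 396 and 469.6 CPM. Its RNA levels were tight and highest in DMSO, whereas in RIP replicates 3 and 4 lay above replicates 1 and 2 in every treatment. IgG was 36.6, 18.7 and 17.6 times the RIP mean, and only 6.21 times RIP replicate 3 in LPS+TM7nox, the smallest ratio to any RIP library among the 6 genes.

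Ift88 lies on chromosome 14 at 57649273 to 57757622 (plus strand, ENSMUSG00000040040). In RNA it was at 4.71, 5.72, 6.13 and 5.20 CPM in DMSO, 3.90, 4.60, 4.20 and 4.23 in LPS, and 4.28, 6.37, 5.96 and 5.94 in LPS+TM7nox. In RIP it was at 5.01, 5.31, 6.36 and 3.74 CPM, then 4.87, 5.82, 6.50 and 4.34, then 7.28, 8.78, 8.13 and 3.26, and in IgG at 98.1, 206 and 131. RIP and RNA overlapped in every treatment. IgG was 19.2, 38.3 and 19.1 times the RIP mean, and 18, 48.8 and 23.2 times the RNA mean.

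The size of the differences between the 3 IgG libraries depended on the scaling. Their order was the same by TMM and by library total for 5 of the 6 genes, and for Ift88 DMSO lay below LPS+TM7nox by TMM (98.1 and 131 CPM) and above it by library total (178 and 174). LPS over DMSO in IgG was 1.46 for Itch, 2.10 for Ift88, 0.792 for Smarcal1, 1.78 for Nedd4l, 1.45 for C1ra and 1.62 for Madd on the TMM scale. With library totals these ratios were 1.01, 1.46, 0.55, 1.23, 1.01 and 1.13. LPS+TM7nox over LPS was 0.44 for C1ra, 0.387 for Madd and 0.634 for Ift88 by TMM, and 0.464, 0.409 and 0.669 by library total. Itch and Smarcal1 were at 1.06 and 1.19 by TMM in that pair. With 1 IgG library per treatment none of these ratios has a replicate check.

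Whether anti-HuR RIP held more of a member than total RNA depended on the scaling for many pairs of gene and treatment. The RIP mean lay above the RNA mean in 12 of 18 pairs of gene and treatment by TMM and in 5 of 18 by library total. DESeq2 size factors added to the 12 Ift88 in DMSO (1.13), C1ra in LPS (1.03) and Madd in LPS+TM7nox (1.23). The share of all genes above 1 was not counted, so these counts show nothing particular to the members. Itch was above 1 in all 3 treatments under TMM, library totals and DESeq2 size factors, and Nedd4l in DMSO and LPS+TM7nox. Ift88, Smarcal1, C1ra and Madd were above 1 under all 3 scalings in no treatment, with TMM ratios of 0.939, 1.27 and 1.22 for Ift88, 0.753, 1.63 and 1.83 for Smarcal1, 1.10, 0.899 and 0.574 for C1ra, and 0.799, 1.05 and 0.99 for Madd. The 1.83 for Smarcal1 rests on RIP replicate 3, at 75.7 CPM. The other RIP libraries of LPS+TM7nox were at 6.2, 8.65 and 16.2 CPM, and the RNA mean was 14.6. The RIP mean lay below the RNA mean under all 3 scalings for Smarcal1 in DMSO (0.753 by TMM, 0.468 by library total, 0.897 by DESeq2 size factors), C1ra in LPS+TM7nox (0.574, 0.307 and 0.697) and Madd in DMSO (0.799, 0.50 and 0.958).

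RIP replicate 3 carries the number shared by the IgG libraries. It was the highest of the 4 RIP libraries in 13 of 18 pairs of gene and treatment, and RNA replicate 3 was the highest in 8 of 18. Over all genes measured, replicate 3 was the highest in 26% to 33.3% of genes in RIP and 22% to 28.8% in RNA. Itch and C1ra had their highest RIP value in replicate 3 in all 3 treatments. Against RIP replicate 3 alone, IgG was 16.0, 15.7 and 9.20 times higher for Itch and 16.5, 14.6 and 10.9 times higher for C1ra.

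Treatment was compared within an assay, with no term for replicate number. The rule that chose the genes used no difference between treatments, but it used the RIP counts, so the RIP tests are not independent of it. For Nedd4l, IgG was at 15.8, 28.0 and 468 CPM in DMSO, LPS and LPS+TM7nox, so its choice may lean on the TM7nox library. In total RNA, LPS against DMSO called 42.0% of genes (20.2% higher, 21.7% lower) by edgeR's quasi-likelihood test with Benjamini-Hochberg adjustment (FDR) under 0.05, and 3 of the 6 genes. C1ra rose, with a log2 fold change of 1.06 ± 0.22 (SE, FDR 0.00135). Madd fell by 0.73 on the log2 scale (SE 0.148, FDR 0.00119) and Smarcal1 fell by 0.53 (SE 0.12, FDR 0.00256). Ift88 was at -0.43 (FDR 0.0694), Itch at 0.14 (FDR 0.523) and Nedd4l at -0.19 (FDR 0.816). With replicates 1 and 2 alone none of the 3 calls held, at FDR 0.0546 for C1ra, 0.256 for Madd and 0.179 for Smarcal1. Smarcal1 was also not called with no filter on low counts (FDR 0.0822), and without RNA DMSO replicate 1 Ift88 was also called (FDR 0.0428). In bulk samples, fewer cells of a type and less RNA per cell cannot be told apart.

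LPS+TM7nox against LPS called 13.8% of genes in RNA (7.37% higher, 6.4% lower) and 1 of the 6. Nedd4l rose by 2.20 ± 0.53 (SE, FDR 0.0126), with all 4 TM7nox libraries above all 4 LPS libraries, and it was not called with replicates 1 and 2 alone (1.36, FDR 0.686). The other 5 had adjusted p-values of 0.149 or more by the same edgeR test. LPS+TM7nox against DMSO called 47.3% of genes (23.7% higher, 23.6% lower) and 4 of the 6. Nedd4l rose by 2.02 (FDR 0.00621) and C1ra by 0.83 (FDR 0.0066), and neither was called with replicates 1 and 2 alone (FDR 0.34 and 0.115). Madd fell by 0.84 (FDR 0.000334), and Smarcal1 fell by 0.37 (FDR 0.0222), a call lost in 4 of 14 alternatives: without RNA LPS+TM7nox replicate 3 (FDR 0.0616) or 4 (FDR 0.0654), with no filter on low counts (FDR 0.321) and with replicates 1 and 2 alone (FDR 0.448). Itch was at 0.38 (FDR 0.0739), and was called in 6 of 14 alternatives. The replicate number as a block, which follows the apparent pairing of the numbers, called it (FDR 0.00227). Leaving out RNA LPS+TM7nox replicate 1 (FDR 0.0079) or RNA DMSO replicate 3 (FDR 0.0438) also did. So did replicates 3 and 4 alone (FDR 0.00586), no filter on low counts (FDR 0.0437) and the DESeq2 Wald test (FDR 0.0443). The comparisons with DMSO share the DMSO libraries, and those with LPS the LPS libraries.

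In anti-HuR RIP, LPS against DMSO called 44.7% of genes (23.5% higher, 21.2% lower) and 1 of the 6. C1ra rose by 0.80 ± 0.27 (SE, FDR 0.0219), and the call was lost without RIP DMSO replicate 1 (FDR 0.0586), 2 (FDR 0.0807) or 4 (FDR 0.0626), or RIP LPS replicate 3 (FDR 0.103). Itch was at 0.65 (SE 0.362, FDR 0.158), and at 0.66 (FDR 0.00245) with the replicate block, which follows the apparent pairing of the numbers. Whether Itch was called here therefore depended on the block. Smarcal1 was at 0.61 with an SE of 0.724, so a difference of that size was within its error. With no filter on low counts Smarcal1 was called in this comparison (0.61, FDR 0.0294) and in LPS+TM7nox against DMSO (0.94, FDR 0.000128), where the filtered test gave 0.96 (FDR 0.287). Ift88 (0.04), Nedd4l (-0.19) and Madd (-0.33) had adjusted p-values of 0.157 or more by the edgeR test.

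LPS+TM7nox against LPS called 16.2% of genes in RIP (8.64% higher, 7.61% lower) and 2 of the 6. Nedd4l rose by 3.56 ± 0.52 (SE, FDR 0.000309), and without RIP LPS+TM7nox replicate 3 by 2.62. In IgG, measured once per treatment, the same gene differed 16.7-fold, and the part of that background in the RIP difference was not tested. C1ra fell by 0.84 (FDR 0.0447), and the call was lost without RIP LPS replicate 1, 2 or 3 (FDR 0.0835, 0.0668 and 0.138) or RIP LPS+TM7nox replicate 1, 2 or 4 (FDR 0.058, 0.131 and 0.122). Over its 15 alternatives C1ra was called in 6, and Nedd4l was called in 15 of 15.

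LPS+TM7nox against DMSO called 48.1% of genes in RIP (25.1% higher, 23.1% lower) and 3 of the 6. Nedd4l rose by 3.37 (SE 0.505, FDR 4.95e-05) and Itch by 1.12 (SE 0.365, FDR 0.0192), and Madd fell by 0.48 (SE 0.183, FDR 0.0402). Without RIP LPS+TM7nox replicate 3, Itch was at 0.62 and not called (FDR 0.116), and it was also not called without RIP DMSO replicate 1 (FDR 0.0659) or 4 (FDR 0.0581). Madd was called in 5 of 15 alternatives, and its call was lost without RIP DMSO replicate 1, 2 or 3 or any of RIP LPS+TM7nox replicates 1, 3 and 4 (FDR 0.0516 to 0.0844). Ift88, at 0.41 (FDR 0.156), was called without RIP LPS+TM7nox replicate 4 (FDR 0.0316).

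**Figure D4:**
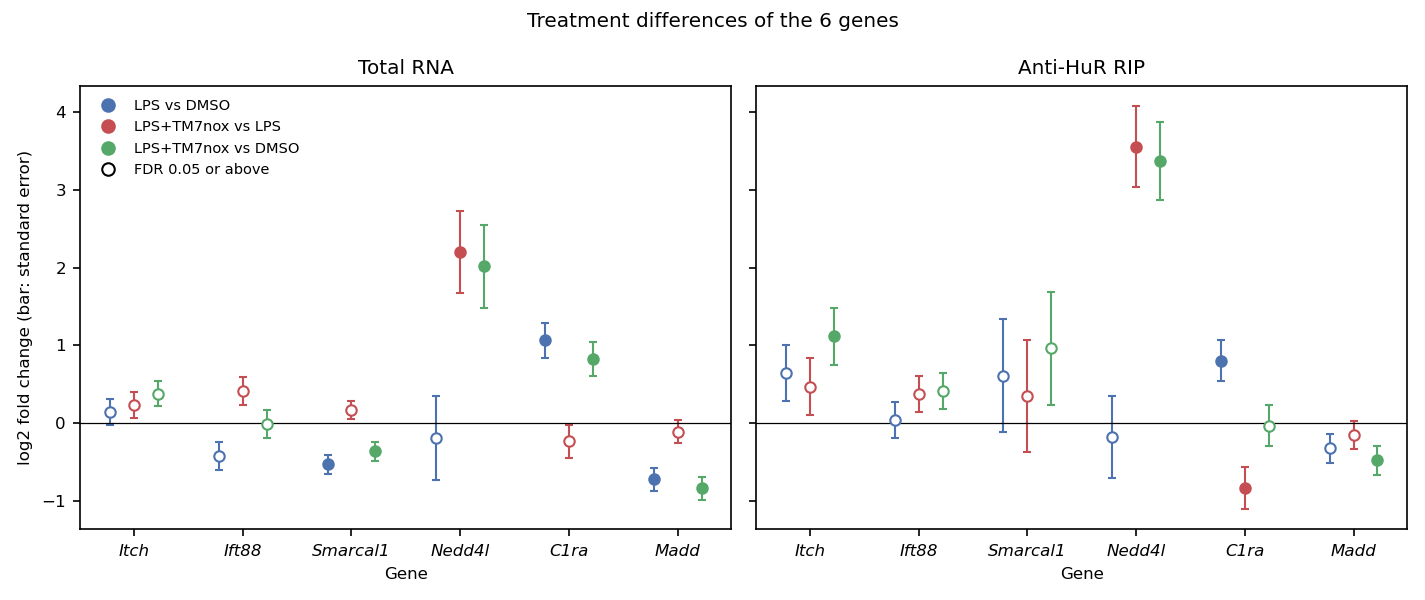
Log2 fold changes of the 6 genes between treatments in total RNA (left) and RIP (right), 4 libraries a group, with standard errors as bars. Filled points passed an FDR of 0.05, and Nedd4l with TM7nox lies highest in both panels while Smarcal1 has the widest bars in RIP.

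The partners of each member were read in the same way. Each list holds a gene chosen for high IgG over RIP, whose passing was fixed by that choice, so only the other genes of a list are informative, and the medians include the chosen gene. The median over all genes takes in genes without reads in an IgG library, so it is a low reference for the lists. Among the 18 IFT-B genes, 17 were measured across assays, and besides the chosen Ift88 none lay 4-fold above every RIP library in all treatments, as 0.206% of all genes did. The highest of the others was Ift172 at 2.58, and the median ratio was 1.14, against 0.387 for all genes. In RNA, 16 IFT-B genes were tested and LPS against DMSO called 1 higher (Ift22, 0.87) and none lower, beside 20.2% higher and 21.7% lower over all genes. Among 8 fork remodelling and RPA genes, none besides the chosen Smarcal1 passed in IgG, the highest of the others being Rpa2 at 2.07, with a median ratio of 1.42 against 0.387 for all genes. In RNA, 7 of these 8 fell with LPS, Smarcal1 included, beside 21.7% of all genes, and the median log2 fold change was -0.78 against -0.04 for all genes. Rad54l, a recombination translocase, fell by 1.5, and Rpa2 and Rpa1, subunits of the single-strand binding complex RPA, by 1.42 and 1.25. Hltf, a fork remodeller, fell by 0.93, and Rpa3 (0.63), Shprh (0.58) and Smarcal1 fell less. Zranb3, the gene not called, was at 0.38 (edgeR FDR 0.3).

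Of 10 genes of complement C1 and its control, 9 were measured across assays. Besides the chosen C1ra, only its near-identical copy C1rb passed in IgG (0.206% of all genes), with C1s1, the substrate protease, at 1.59 and a median ratio of 1.38 against 0.387. In RNA, 3 of the list were tested and C1ra alone was called with LPS (42.0% of all genes). In LPS+TM7nox against LPS, 1 of the 3 was called lower and none higher, beside 6.4% of all genes lower. It was C1qb, a chain of the C1q recognition unit, which fell by 3.35 on the log2 scale (FDR 0.017), while C1qc was at -1.34 (FDR 0.42) and C1ra at -0.23 (FDR 0.54). Of 14 Rab3 and Rab27 genes and regulators, 11 were measured and none besides the chosen Madd passed in IgG, with Rab3gap1 the highest of the others at 2.33 and a median ratio of 1.12 against 0.387. In RNA, LPS against DMSO called 3 of 11 higher and 6 lower, Madd included, beside 20.2% and 21.7% over all genes, with Rab27a, a GTPase of secretory vesicles, at -2.82, Rab3a at -2.31 and Rab3gap1 at 0.68.

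The genes whose levels were most like each member over the 27 libraries were often the same few. These are Pearson correlations of log2(CPM + 1) among 12201 genes with at least 50 counts in some library, given as a description, since the libraries share 3 assays and the IgG libraries stand apart. Itch was most like Wwp2 (0.98), Wwp1 (0.925) and Calcoco1 (0.864). Ift88 was most like Sf3b1 (0.949), Madd (0.949) and C1ra (0.916), and C1ra like Sf3b1 (0.938), C1rb (0.916) and Ift88 (0.916). Madd was most like Ift88 (0.949), Atrip (0.939) and C1rb (0.905), and Smarcal1 like Atrip (0.927), Madd (0.884) and C1rb (0.884). Nedd4l had lower values, with Gm22362 (0.80), Smg1 (0.798) and Calcoco1 (0.798). Sf3b1, a core spliceosome subunit, averaged 1332 CPM in IgG, 231 in RIP and 201 in RNA.

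No member shared its strand with an overlapping gene in GENCODE M39. The overlapping genes in the table lie on the opposite strand: Gm14227 in Itch, Gm15836 and Ift88os in Ift88, Marchf4 in Smarcal1, and A330084C13Rik and Gm50368 in Nedd4l. They had at most 14 counts in any IgG library (Marchf4), so few of the IgG reads were counted to them. Whether the counting used strand is not given in the sources used here, so reads of a member and its antisense partner could not be told apart.

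The transcripts of 5 of the 6 genes were long. Main transcripts were 5944 bases for Itch, 5349 for Ift88, 6727 for Smarcal1, 8208 for Nedd4l and 6995 for Madd, at percentiles 77.8 to 94.2 of 10724 coding genes tested in RNA (median 3430.5), and 2981 for C1ra (percentile 41.2). The U share of the 3′ UTR lay on both sides of the median: it was 32.0% for Itch, 28.0% for Ift88, 29.4% for Smarcal1, 30.5% for Nedd4l, 27.6% for C1ra and 26.4% for Madd, with 3 of 6 above the median of 29.2% over all such genes. The pentamer ATTTA, read on the sense strand with overlaps allowed, occurred 8, 3, 9, 8, 2 and 1 times in the same order, and 73.8% of 10530 3′ UTRs held it at least once. A match to these letters is not a binding site.

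The most U-rich stretch of 30 bases in the 3′ UTR is shown for the members with the highest and the lowest U share, because HuR binds such sequence, with T in capitals. The Itch stretch is at chr2:155068716-155068745 (plus strand) with 19 T of 30, and that of Madd at chr2:90968480-90968509 (minus strand) with 16 of 30, both on GRCm39.
Itch: TgTTaagTTTTTTTTTTTcTTacTgcaTgT
Madd: TcTTcTcTTacgTcTgagTgTcTTTgTgTT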

How the data were processed

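Total RNA, anti-HuR RIP and control IgG libraries of RAW264.7 cells were analysed as deposited. Each sample came from about 30 M lysed cells, and the library kit was SMART-Seq Stranded, per the labels' protocols. The authors deposited raw counts per gene, whole numbers with no normalization. The submitters' processing notes name FastQC 0.11.9, STAR, HTSeq, DESeq2 and GRCm39, with no annotation release or strand setting named. No pair of replicates agreed within sampling noise (chi-square per gene 38 to 213 over 36 pairs).

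Tests of counts used R 4.3.3 and edgeR 4.0.16 (quasi-likelihood F test, two-sided, TMM, filterByExpr minimum count 10, FDR under 0.05 over all genes), fitting the 12 libraries of an assay together. The SE was the log2 fold change divided by the square root of F. CPM used 1 TMM scale over 27 libraries. Of the table's genes, 51731 (93.24%) matched GENCODE M39 on GRCm39 by identifier. U shares used 3′ UTRs of at least 50 bases. A count of 0 was read against a floor of 3 counts. The code was tested on simulated data.

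The members, gene lists and tests were chosen with earlier results of these data known. Named were the 6 genes, the 3 genes most like each, the 3 genes with the largest excess in each IgG library, overlapping genes, and called genes of 5 lists (NEDD4 family, IFT-B, fork remodellers and RPA, complement C1, Rab3 and Rab27 regulators). Alternatives were DESeq2 1.42.0, its size factors, library totals, no filter, the replicate block, subsets of replicates and leaving out each library. Same-numbered libraries deviated together, with correlations of 0.116 or more in every RNA comparison. In RIP these were 0.235 or more, except LPS+TM7nox against DMSO (lowest 0.097). Libraries with different numbers reached 0.205 in RNA and 0.193 in RIP, so the ranges overlap in some comparisons. The numbers appear to pair the samples, but the main tests held no term for replicate number and so ignore that pairing.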

Additional observations from a re-analysis of the deposited data

Results flagged for a closer look

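In RIP with LPS+TM7nox, replicate 3 stood far from the other 3 libraries for Nedd4l, at 40.2 CPM with the next highest at 9.18, a gap of 0.919 of the group's range. The same library stood apart for Smarcal1, at 75.7 CPM with the next highest at 16.2, a gap of 0.856 of the range. These were 2 of the 36 groups examined, of which chance would single out about 1 in 20. That library also held the highest RIP value of Itch, 1723 CPM.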

How the results depend on the processing

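The counts of 18 of 18 for IgG over RIP and over RNA, which the choice of genes largely fixes, were the same under the 3 scalings and with replicate 3 alone. The RIP mean lay above the RNA mean in 5 of 18 pairs by library total, against 12 by TMM. DESeq2 size factors added Ift88 in DMSO, C1ra in LPS and Madd in LPS+TM7nox to the 12. Genes 10-fold above all other libraries numbered 2, and 4 at 5-fold or 14 at 20 counts. With replicates 1 and 2 alone, all genes called fell to 1668, 168 and 2246 in RNA (LPS against DMSO, LPS+TM7nox against LPS, LPS+TM7nox against DMSO) and to 3392 and 789 in the first and second RIP comparison, and members called were 0, 0 and 1 in RNA and 1 in RIP LPS+TM7nox against LPS. With replicates 3 and 4 alone, RNA LPS+TM7nox against LPS called 3489 genes and 2 members, and RIP LPS+TM7nox against LPS 1070 and 1. RIP LPS against DMSO called 5537 genes and 0 members. In RIP LPS+TM7nox against DMSO 1 member was called, and the total over all genes is not given here. Leaving out replicate 3 of every RIP group, chosen after seeing the data, gave 1148 genes and 1 member in RIP LPS+TM7nox against LPS. Without a filter on low counts, 3 members (C1ra, Itch and Smarcal1) were called in RIP LPS against DMSO, beside 6029 of all genes (6090 in the main test). With the replicate block, LPS+TM7nox against LPS called 3091 genes in RNA and 4577 in RIP. In RIP LPS against DMSO the block called 8073 genes and 2 members, where the main test called 6090 and 1. In RIP LPS+TM7nox against DMSO the block gave Ift88 an edgeR FDR of 0.0387, and 3 of 4 libraries correlated best with their own number. In RNA LPS+TM7nox against LPS it was also 3 of 4. Beyond the member calls given here and in the report, the block changed no other call of a member. The cause of these differences was not tested, although fewer libraries give less precision by construction.

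Leaving out 1 library at a time gave 4427 to 5585, 1199 to 1605 and 5131 to 6209 genes in RNA and 5145 to 6294, 1495 to 2210 and 5676 to 6585 in RIP. Members called were 3 to 4, 1 to 1 and 3 to 5 in RNA, and 0 to 1, 1 to 2 and 1 to 3 in RIP. No called value changed sign. Among values not called, Smarcal1 in RIP changed sign without RIP LPS+TM7nox replicate 3, from 0.35 to -0.91 in LPS+TM7nox against LPS and from 0.96 to -0.29 in LPS+TM7nox against DMSO. Other uncalled values also changed sign when 1 library was left out, such as Itch in RIP LPS+TM7nox against LPS (lowest -0.04) and Nedd4l in RNA LPS against DMSO (highest 0.43). Nedd4l in RNA rests on 0 to 137 counts a library, which limits its precision.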
